A study of Mus musculus with 6 samples.

Results

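The incretin, lipid and neurotransmitter receptors of the pancreatic islet were examined in 6 single-colour microarrays of sorted neonatal mouse islet cells. The 10 receptor genes were Glp1r, Gipr and Gcgr for peptide hormones of the glucagon family, Gpr119 and Ffar1 for lipids, Chrm3 and Adra2a for acetylcholine and adrenaline, and Sstr2, Sstr3 and Galr1 for somatostatin and galanin. They were found by matching the RefSeq name of each probe that is not a control to a gene symbol, which gave 12 of the 56605 probes and 10 of the 45616 features (genes, or probe names with no matched symbol). Chrm3 and Galr1 had 2 probes each and the other 8 genes had 1.

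All pups carried the Wnt4eGFPCre allele, a Cre and EGFP knock-in at Wnt4, together with the mTmG reporter, in which Cre switches a cell and its progeny from membrane tdTomato to membrane GFP. Islets were collected on postnatal day 1 (P1), pooled from 3 or 4 pups per sample, and sorted by FACS on membrane GFP. The Wnt4hi population (labelled GFPpositive, replicates 2, 3 and 4) and the Wnt4low population (labelled GFPnegative, replicates 1, 3 and 4) were each measured on 3 arrays. GFP here marks past Cre activity rather than the Wnt4 level at the time of sorting, and the sort as described used no marker of any islet cell type. The labels do not say whether samples with the same number came from the same pool of pups, though their pup counts match (4 for number 3, 3 for number 4). The p-values treat the 6 samples as independent, which the labels do not establish, and measure the spread between them. Values are normalised log2 intensities, so 1 unit is a doubling, and differences are Wnt4hi minus Wnt4low.

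These receptors couple hormones, lipids and nerve transmitters to secretion. Receptors coupled to Gs (Glp1r, Gipr, Gcgr, Gpr119) raise cAMP and amplify the insulin response to glucose, those coupled to Gq (Ffar1, Chrm3) act through phospholipase C and calcium, and those coupled to Gi/o (Adra2a, Sstr2, Sstr3, Galr1) lower cAMP, open potassium channels and restrain secretion. GLP1R and GIPR are the receptors of the incretins, the gut hormones released after a meal, and somatostatin reaches its receptors mainly from neighbouring delta cells.

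Sorting and array quality were as follows. Wnt4 itself measured 10.83 ± 0.34 (SD, n = 3) in Wnt4hi and 9.76 ± 0.40 (SD, n = 3) in Wnt4low. The groups did not overlap, and the difference of 1.08 (SE 0.27) had an unadjusted p of 0.00694 and an adjusted p of 0.210 in limma. All 6 arrays lay on 1 slide with 1 scan time, so no batch could be separated. The median spot was 10.8 to 15.6 times its local background on the Wnt4hi arrays and 12.2 to 14.4 times on the Wnt4low arrays. Between 70.5% and 79.5% of the spots were well above background by the scanner software's call on each array.

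Of the 10 receptor genes, 3 passed the study's threshold of an unadjusted p below 0.05 in limma, all with the higher level in Wnt4hi: Glp1r, Gpr119 and Galr1. Without Wnt4low replicate 3 the count was 6, and of all features 2413 were higher and 2612 lower in Wnt4hi. In the fit of all 6 arrays 10.6% of all 45616 features passed that threshold, 5.06% higher and 5.53% lower in Wnt4hi (2306 and 2522 features). After Benjamini-Hochberg adjustment over all features 0 of the 10 receptor genes passed 0.05 in limma, where 0.441% of all features did (0.0351% higher, 0.406% lower). By the methods' t-test, 2 of the 10 (Gpr119 and Galr1) had an unadjusted p below 0.05 and 0 remained after adjustment. The 3 Wnt4hi and the 3 Wnt4low values did not overlap for 4 of the 10 genes (Glp1r, Gipr, Gpr119 and Galr1), all with Wnt4hi higher, against 16.1% of all features in either direction and 9.63% with Wnt4hi higher. Leaving out Sstr2, which was well above background on 0 of 6 arrays, the median difference of the other 9 genes was 0.61 with 8 of 9 above 0, against 0.09 over the 38017 features well above background on at least 1 array, 63.4% of which lay above 0. Of the 10 genes, 7 were well above background on all 6 arrays and Galr1 on the 3 Wnt4hi arrays only, while Ffar1 and Sstr2 fell short of the call on arrays of both populations.

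**Figure D1:**
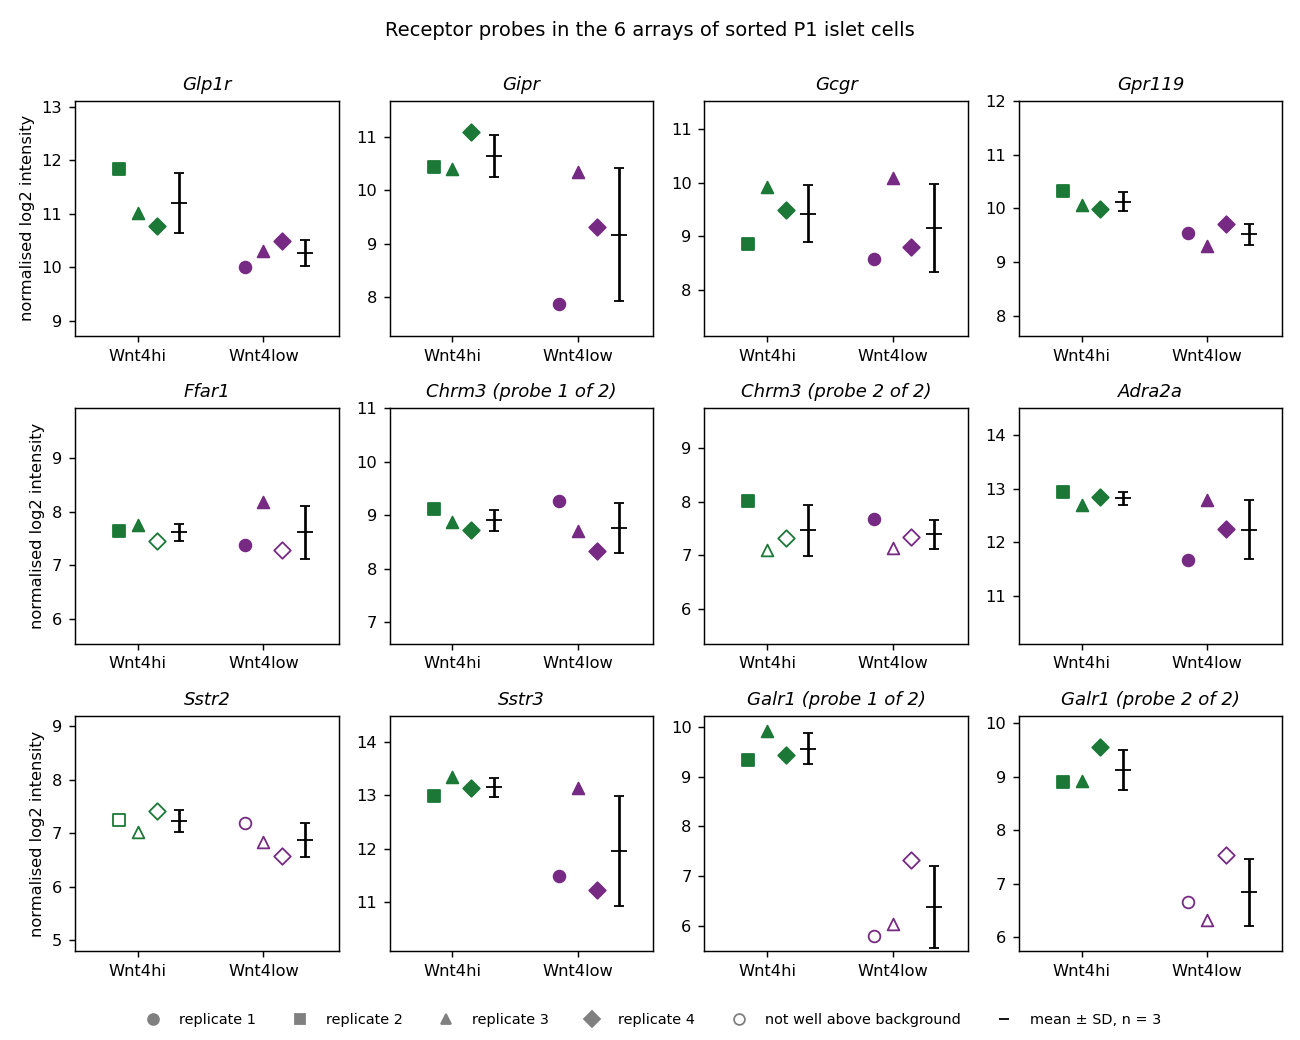
Normalised log2 intensity (vertical axes) of the 12 probes of the 10 receptor genes in the 3 Wnt4hi (green) and 3 Wnt4low (purple) arrays; symbol shapes give the replicate number, open symbols are spots not well above background, and bars give the mean ± SD (n = 3). Both Galr1 probes were well above background on the 3 Wnt4hi arrays and on 0 of the 3 Wnt4low arrays, and the Gipr, Adra2a and Sstr3 values of Wnt4low replicate 3 lay near the Wnt4hi values.

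Among the peptide hormone receptors coupled to Gs, Glp1r, the receptor of glucagon-like peptide 1, read 11.83, 11.02 and 10.77 in Wnt4hi replicates 2, 3 and 4 and 10.01, 10.31 and 10.49 in Wnt4low replicates 1, 3 and 4. Every Wnt4hi array lay above every Wnt4low array, with the widest gap set by Wnt4hi replicate 2. The difference was 0.94 (SE 0.30, 95% interval 0.20 to 1.68), a 1.91-fold higher level, with an unadjusted p of 0.0211 and an adjusted p of 0.339 in limma. Without Wnt4low replicate 1 the difference was 0.80 and the unadjusted p in limma was 0.0659. Without Wnt4hi replicate 2 the difference was 0.62, and its unadjusted p was 0.0294.

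Gipr, the receptor of glucose-dependent insulinotropic polypeptide, read 10.42, 10.39 and 11.09 in the Wnt4hi replicates 2, 3 and 4 and 7.86, 10.33 and 9.32 in the Wnt4low replicates 1, 3 and 4. The groups did not overlap, but Wnt4low replicate 3 lay just under the lowest Wnt4hi value while replicate 1 lay far below. The difference of 1.46 (SE 0.62, 95% interval -0.04 to 2.96) missed the unadjusted threshold in limma, with an unadjusted p of 0.0541 and an adjusted p of 0.486. It was 0.81 without Wnt4low replicate 1 and 2.04 without Wnt4low replicate 3, and of the fits that left out 1 array only the latter passed, with an unadjusted p of 0.00872. Over all 19 other settings Gipr passed the unadjusted threshold in 7.

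Gcgr, the glucagon receptor, read 8.86, 9.93 and 9.49 in Wnt4hi and 8.58, 10.10 and 8.81 in Wnt4low, in the same order of replicates. The highest of the 6 values was a Wnt4low array and the groups overlapped. The difference of 0.26 (SE 0.47, 95% interval -0.88 to 1.41) did not pass (adjusted p = 0.905 in limma), and the interval still held a difference of more than 1 log2 unit upward. The value turned to -0.026 without Wnt4low replicate 1.

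Among the lipid receptors, Gpr119, a receptor of oleoylethanolamide and related lipid amides that couples to Gs, read 10.33, 10.07 and 9.98 in Wnt4hi and 9.55, 9.30 and 9.70 in Wnt4low. The replicates of each population were close, with SDs of 0.18 and 0.20, and the groups did not overlap. The difference was 0.61 (SE 0.17, 95% interval 0.20 to 1.02), 1.53-fold, with an unadjusted p of 0.0109 and an adjusted p of 0.257 in limma. Over 19 other settings it lay between 0.50 and 0.70, with an unadjusted p below 0.05 in 18.

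Ffar1, the receptor of long-chain fatty acids that couples to Gq, read 7.64, 7.76 and 7.45 in Wnt4hi and 7.38, 8.18 and 7.29 in Wnt4low. Its spot was well above background on 2 of 3 arrays of either population, so its level lay near the detection limit of the arrays. The difference was -0.00035 (SE 0.27) with an unadjusted p of 0.999 in limma, and its 95% interval of -0.65 to 0.65 leaves room for a change in either direction. Its sign turned in 7 of the 18 other settings run on it.

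Among the neurotransmitter receptors, Chrm3, the M3 muscarinic receptor through which acetylcholine raises calcium in beta cells, read 9.11, 8.88 and 8.72 in Wnt4hi and 9.26, 8.70 and 8.34 in Wnt4low by its brighter probe. The groups overlapped and the highest value was Wnt4low replicate 1. The difference was 0.14 (SE 0.26, 95% interval -0.50 to 0.77, adjusted p = 0.913 in limma). The dimmer Chrm3 probe, well above background on 1 of 3 arrays of either population, gave 0.08 (SE 0.28). Without Wnt4low replicate 4 the brighter probe turned to -0.079.

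Adra2a, the alpha2A adrenergic receptor by which adrenaline restrains insulin release, read 12.94, 12.70 and 12.84 in Wnt4hi and 11.68, 12.79 and 12.25 in Wnt4low. The Wnt4hi replicates were tightly grouped (SD 0.12) and the Wnt4low replicates were spread (SD 0.56), with Wnt4low replicate 3 among the Wnt4hi values. The difference of 0.58 (SE 0.29, 95% interval -0.12 to 1.29) did not pass (adjusted p = 0.570 in limma, unadjusted p of 0.0880). It was 0.30 without Wnt4low replicate 1 and 0.86 without Wnt4low replicate 3, and of 19 other settings only the latter passed, with an unadjusted p of 0.0120.

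Among the inhibitory peptide receptors, Galr1, a receptor of the neuropeptide galanin, showed the largest difference of the 10 genes. Its probe 2, as numbered in the plot of values by array, stands for the gene because its mean over the 6 arrays was the higher, and it read 8.90, 8.92 and 9.55 in Wnt4hi and 6.66, 6.32 and 7.54 in Wnt4low. Its probe 1 read 9.33, 9.92 and 9.43 in Wnt4hi and 5.79, 6.05 and 7.33 in Wnt4low. Both probes separated the populations by more than 1 log2 unit between the nearest arrays, and the Wnt4low replicate nearest to Wnt4hi was replicate 4 for both.

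In unprocessed intensities probe 2 of Galr1 measured 436, 577 and 563 on the Wnt4hi arrays and 70, 41.5 and 137.5 on the Wnt4low arrays, over local backgrounds of 25 to 28. Probe 1 measured 617, 1172 and 522 against 29, 35 and 122, over local backgrounds of 31 to 38. On the Wnt4low arrays neither probe was well above background, and probe 1 was at or near the local background in replicates 1 and 3. The Wnt4low values therefore set only a bound: the Galr1 signal was at least 3.27-fold higher in Wnt4hi by probe 2 and at least 4.49-fold higher by probe 1. These bounds compare the mean of the Wnt4hi values with, for each Wnt4low array, whichever is larger, the probe's value there or the dimmest value that the software called well above background.

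The measured Galr1 difference was 2.29 (SE 0.36, 95% interval 1.42 to 3.15) by probe 2, with an unadjusted p of 0.000618 and an adjusted p of 0.0724 in limma. Probe 1 gave 3.17 (SE 0.43) with an adjusted p of 0.0539 over all probes, where 0.477% of the probes passed 0.05. Galr1 passed the unadjusted threshold in all 19 other settings, with differences between 2.02 and 3.40, and its adjusted p passed in 3 of them, over a range of 0.0319 to 0.368. The lowest came from leaving out dim features, a filter that Galr1 met through the Wnt4hi arrays alone, and another from the authors' processed values, whose column for Wnt4hi replicate 2 did not follow its own array (r = 0.283 over features). Being well above background on 3 Wnt4hi and 0 Wnt4low arrays was a pattern of 84 of all features (0.184%), and 155 (0.340%) had the reverse pattern.

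Sstr3, a somatostatin receptor, read 12.98, 13.34 and 13.14 in Wnt4hi and 11.50, 13.14 and 11.23 in Wnt4low. A pair of Wnt4low arrays lay more than 1 log2 unit below all Wnt4hi arrays, while Wnt4low replicate 3 lay among them. The difference of 1.19 (SE 0.50, 95% interval -0.02 to 2.41) missed the unadjusted threshold in limma, with an unadjusted p of 0.0535 and an adjusted p of 0.483. Without Wnt4low replicate 3 it was 1.78 with an unadjusted p of 0.000211, and without Wnt4low replicate 4 it was 0.83 with 0.157. Of the fits that left out 1 array only the former passed, and over all 19 other settings Sstr3 passed in 8.

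Sstr2, another somatostatin receptor, read 7.25, 7.01 and 7.41 in Wnt4hi and 7.19, 6.84 and 6.57 in Wnt4low. Its probe was well above background on 0 of 3 Wnt4hi and 0 of 3 Wnt4low arrays, so these arrays gave no measured difference for it and no fold is given. The permutation test of the 6 arrays, whose smallest possible two-sided p with 3 against 3 arrays is 0.1, gave an exact p of 0.1 for Glp1r, Gipr, Gpr119 and Galr1 and between 0.2 and 1 for Gcgr, Ffar1, Chrm3, Adra2a and Sstr3.

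**Figure D2:**
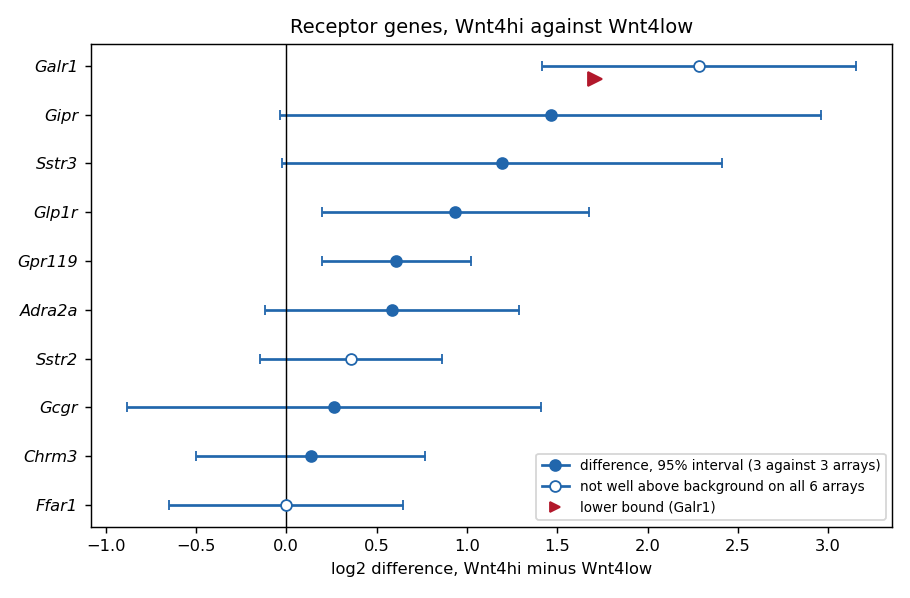
Log2 difference Wnt4hi minus Wnt4low (horizontal axis) of each receptor gene with its 95% interval from limma; open points are genes not well above background on all 6 arrays and the red mark is the lower bound of Galr1. The intervals of Galr1, Glp1r and Gpr119 lie above 0, and those of Gipr and Sstr3 reach just below it.

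The receptors did not move as 1 block over the arrays. Set against its own mean over the 6 arrays, the median receptor gene lay at 0.41, 0.26 and 0.25 in Wnt4hi replicates 2, 3 and 4 and at -0.72, 0.06 and -0.46 in Wnt4low replicates 1, 3 and 4. Between 8 and 9 of the 10 genes, Sstr2 at background included, were above their mean on each Wnt4hi array. On the Wnt4low arrays this count was 2, 5 and 0, with replicate 3 between the populations. In that replicate Gipr, Gcgr, Ffar1, Adra2a and Sstr3 were above their means, by 0.26 to 0.81, while Galr1, not well above background there, was 1.66 below.

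Markers of islet cell types moved with the sort. Of 12 pan-endocrine genes (such as Chga, Neurod1 and Pax6), 11 were higher in Wnt4hi and 0 lower at the unadjusted threshold, with a median difference of 1.12 (7 were higher without Wnt4hi replicate 4), and their summed normalised intensity ran from 191708 to 219396 in Wnt4hi and from 71743 to 137430 in Wnt4low. Of 12 beta-cell genes 7 were higher and 0 lower (median 1.16; 4 higher without Wnt4hi replicate 3 or 4), and of 10 alpha-cell genes 4 were higher and 0 lower (median 1.47; 2 higher without Wnt4hi replicate 4). Of 7 delta-cell genes 1 was higher and 3 were lower (median -0.71, or -0.56 with genes below background in 1 population at their bound). Among the lower were Sst (-0.56, adjusted p = 0.356 in limma) and Hhex, a transcription factor of delta cells (-1.75, adjusted p = 0.0920 in limma). Endothelial genes, given below, were lower as well, and their part in these values was not tested. The count of delta-cell genes lower in Wnt4hi was 1 without Wnt4hi replicate 3. The labelled tissue, islet endocrine cells, was present in both populations, since each of the 12 pan-endocrine and 12 beta-cell markers passed the background call on each of the 6 arrays. Against the 6-array mean, the median pan-endocrine gene lay at -0.12 in Wnt4low replicate 3 (-1.04 and -0.56 in Wnt4low replicates 1 and 4). The median beta-cell gene lay at 0.10 there (-1.10 and -0.64) and the median alpha-cell gene at -0.19 (-2.16 and -0.12).

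Of 15 endothelial genes 13 were lower in Wnt4hi and 0 higher at the unadjusted threshold, 8 of them after adjustment. Their median difference was -3.33, or -3.04 with 2 genes below background in 1 population at their bound. Their summed intensity was 6562 to 9389 in Wnt4hi and 43406 to 89184 in Wnt4low. Tek and Tie1, receptor kinases of endothelial cells, were well above background on 0 of 3 Wnt4hi arrays and on 3 of 3 Wnt4low arrays. Of 12 mesenchyme and pericyte genes 8 were lower in Wnt4hi, with summed intensities of 45863 to 84238 against 105870 to 120969. That count was 9 without Wnt4hi replicate 2, whose median mesenchyme gene lay 0.19 above its 6-array mean (-1.26 and -0.83 in Wnt4hi replicates 3 and 4), and between 3 and 5 without any 1 of the other 5 arrays. Further, 4 of 12 leukocyte genes were lower (12287 to 16994 against 20726 to 23594). In such bulk pools, fewer cells of a type and less RNA per cell cannot be told apart, and the part of these markers in the receptor differences was not tested.

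**Figure D3:**
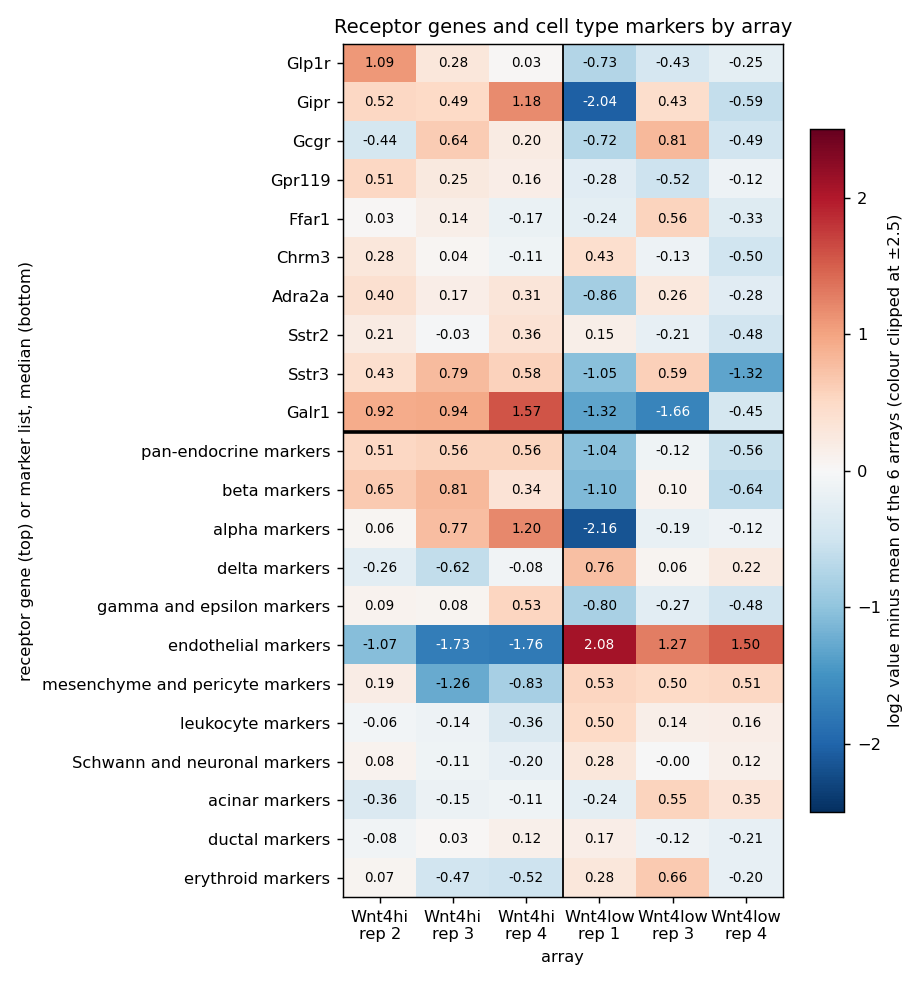
Log2 value minus the mean of the 6 arrays for each receptor gene (upper rows) and the median over each marker list (lower rows), by array; red is above and blue below the mean, with the number in each cell. Pan-endocrine markers lie between 0.51 and 0.56 on the Wnt4hi arrays and between -1.04 and -0.12 on the Wnt4low arrays, and endothelial markers run the opposite way.

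To set the receptors beside the endocrine markers of the same arrays, the mean log2 value of the 12 pan-endocrine genes, which differed by 1.18, was subtracted from each receptor on each array. By construction a gene with equal levels in both populations then lies at -1.18, and 79.2% of all features were lower in Wnt4hi without overlap after this subtraction. Galr1, not well above background on the Wnt4low arrays, had only a bound here too: with each Wnt4low value at the detection limit where it lay below it, the relative level was at least 0.53 higher in Wnt4hi by probe 2, with overlapping groups, and at least 0.98 higher by probe 1, without overlap. Gipr was 0.28 higher relative to these markers, Sstr3 0.01 higher (positive in 9 of 14 other settings, from -0.38 to 0.36), and Glp1r and Gpr119 differed by -0.25 and -0.57, all with overlapping groups (exact permutation p of 0.3 to 1). Adra2a (-0.60), Gcgr (-0.92) and Chrm3 (-1.05) lay below 0 without overlap, as most features did, so nothing particular to these receptors is read from it. Ffar1, well above background on 2 of 3 arrays of either population, lay at -1.18. No relative value is given for Sstr2, which had no measured level. Without 1 array the relative value ran from -0.59 (without Wnt4hi replicate 2) to -0.0038 (without Wnt4hi replicate 4) for Glp1r and from -0.11 (without Wnt4low replicate 1) to 0.62 (without Wnt4low replicate 3) for Gipr. It ran from -0.92 (without Wnt4low replicate 3) to -0.29 (without Wnt4low replicate 1) for Gpr119 and from -1.32 (without Wnt4low replicate 3) to -0.53 (without Wnt4low replicate 1) for Chrm3.

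Against the mean of 12 beta-cell genes, which differed by 1.11, Gipr was 0.36 higher, while Glp1r differed by -0.17 and Gpr119 by -0.50, all with overlapping groups. Adra2a (-0.52), Gcgr (-0.84) and Ffar1 (-1.11) lay below 0 without overlap, as 55.7% of all features did after the same subtraction, and Chrm3 (-0.97) overlapped. Without 1 array Glp1r ran from -0.53 (without Wnt4hi replicate 2) to 0.04 (without Wnt4low replicate 1), Gipr from 0.05 (without Wnt4low replicate 1) to 0.58 (without Wnt4low replicate 3), Gpr119 from -0.96 (without Wnt4low replicate 3) to -0.14 (without Wnt4low replicate 1) and Chrm3 from -1.36 to -0.38 (without the same arrays). Against the mean of 8 alpha-cell genes, which differed by 1.18, Adra2a, Gcgr and Chrm3 overlapped as well, as did Ffar1, where 39% of all features were lower without overlap. With its Wnt4low values at the detection limit, Galr1 was at least 0.60 (probe 2, overlapping) and 1.06 (probe 1, no overlap) higher against the beta-cell mean. Against the alpha-cell mean it was at least 0.53 (probe 2) and 0.98 (probe 1) higher, overlapping by both probes. Over 14 other settings the relative Glp1r value was positive in 3 against the beta-cell mean, 2 against the alpha-cell mean and 0 against the pan-endocrine mean. That of Gipr was positive in 14, 13 and 13, and that of Sstr3 in 12, 6 and 9.

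**Figure D4:**
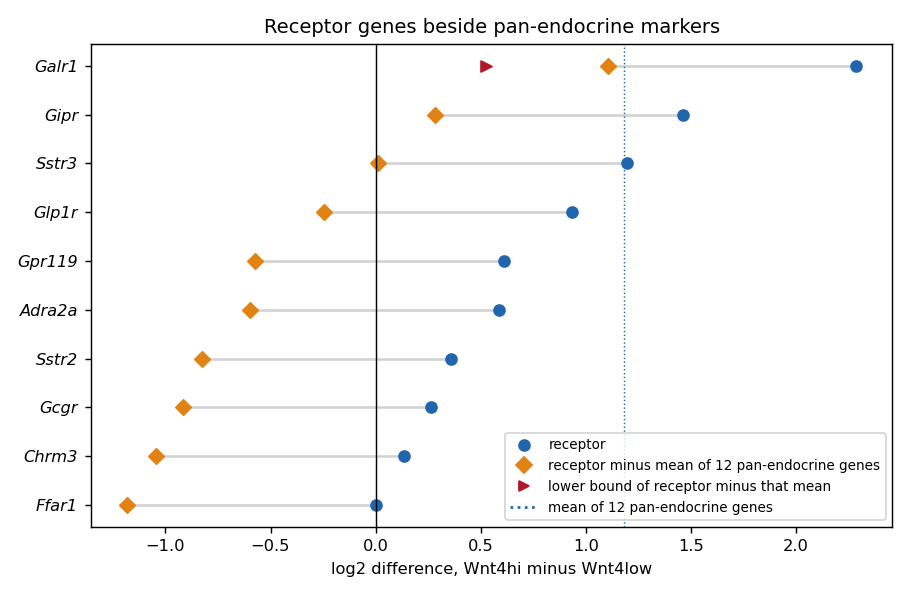
Log2 difference Wnt4hi minus Wnt4low of each receptor gene as measured (blue) and after subtracting the mean of 12 pan-endocrine genes of the same array (orange); the dotted line is the difference of that mean, 1.18, so a gene with equal levels in both populations lies at -1.18 in orange, and the red mark is the lower bound of Galr1 by probe 2, 0.53, since its Wnt4low spots were not well above background. Gipr lies at 0.28, Sstr3 at 0.01, and the 7 genes other than these and Galr1 lie below 0, where the Sstr2 point reflects a spot at background on all 6 arrays and is no measured difference.

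For 3 receptor genes the 250 bases before the transcription start are shown, because Glp1r and Gpr119 passed the unadjusted threshold, and Adra2a gives the adrenergic counterpart; all 3 have their outermost annotated start there. They are RefSeq promoter sequences of the mouse assembly GRCm38.p6, at chr17:30901617-30901866 (plus strand) for Glp1r, chrX:48674479-48674728 (minus strand) for Gpr119 and chr19:54045009-54045258 (plus strand) for Adra2a. Capitals mark matches to the motifs that were searched on both strands.
Glp1r: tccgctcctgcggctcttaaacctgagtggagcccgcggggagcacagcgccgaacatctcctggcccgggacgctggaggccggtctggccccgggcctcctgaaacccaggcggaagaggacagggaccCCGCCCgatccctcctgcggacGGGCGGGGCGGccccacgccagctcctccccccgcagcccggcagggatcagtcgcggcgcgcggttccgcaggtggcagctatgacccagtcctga
Gpr119: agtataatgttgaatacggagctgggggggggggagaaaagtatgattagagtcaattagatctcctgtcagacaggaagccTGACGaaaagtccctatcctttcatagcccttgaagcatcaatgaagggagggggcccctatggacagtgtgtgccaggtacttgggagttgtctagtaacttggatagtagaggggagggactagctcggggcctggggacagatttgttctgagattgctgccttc
Adra2a: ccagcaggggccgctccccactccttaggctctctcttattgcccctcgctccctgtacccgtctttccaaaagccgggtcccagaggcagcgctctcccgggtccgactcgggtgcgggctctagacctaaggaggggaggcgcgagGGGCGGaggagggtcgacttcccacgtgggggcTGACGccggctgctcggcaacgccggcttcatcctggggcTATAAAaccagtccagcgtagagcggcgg
The Glp1r window is 73.2% G and C and holds 3 GC boxes (GGGCGG) beginning 119, 97 and 92 bases upstream of the start, the last pair overlapping by 1 base. The Adra2a window (67.6%) holds a TATA box (TATAAA) 29 bases upstream, a cAMP-response half-site (TGACG) at 69 and a GC box at 102. The Gpr119 window (50.4%) holds the half-site TGACG at 168. The median promoter of the RefSeq table is 52.4% G and C.

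The table held 9 windows of 8 receptor genes (all but Gipr and Galr1, with 2 windows for Sstr3), and TGACG was found in 4 of the 9 and the GC box in 4, against 17.8% and 32.7% of 32851 promoters. TATAAA was found in Adra2a alone (12.4% of promoters). The E-box CAGATG (14.4%) and the MAF half-site TGCTGAC (3.81%) were each found in Ffar1 alone. The homeodomain core TAATTA (4.84%) and the FOXA motif TGTTTAC (3.17%) were found in 0 of the 9. The Gcgr, Chrm3 and both Sstr3 windows do not end at the outermost annotated start of their gene. The annotated Ffar1 start falls on the letters ATG, and whether that window is the promoter was not tested. TGACG can share its first letters with the end of the MAF half-site, and such matches describe letters, not bound sites.

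Among the signalling genes around these receptors, 224 genes in 10 lists, 33 were higher and 32 lower in Wnt4hi at the unadjusted threshold (limma), which is 14.7% and 14.3% of them, against 5.06% and 5.53% of all features. The lists were chosen with earlier results of these data known. Their median difference was 0.07. After adjustment 1 was higher (Ghrl) and 2 were lower (Calcrl and Gng11). No list was tested as a set.

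The ligands and the proteins that handle them included 23 genes, of which 8 were higher and 1 lower in Wnt4hi at the unadjusted threshold (median 0.34, or 0.36 without 2 genes below background in both populations). The higher count was 4 without Wnt4hi replicate 4 and 5 without Wnt4low replicate 1. Ghrl, the ghrelin gene of epsilon cells, read 13.87, 14.29 and 14.34 against 11.57, 12.16 and 12.47, a difference of 2.10 (SE 0.27, adjusted p = 0.0491 in limma). Its other probes gave 2.38 (SE 0.45) and 2.33 (SE 0.33), with adjusted p of 0.107 and 0.0597 in limma over all probes. Without any 1 array, 0 of all features were higher after adjustment. Ppy, encoding pancreatic polypeptide, was higher by 1.22 (SE 0.20) and Iapp, encoding amylin, by 0.97 (SE 0.26). The prohormone convertases Pcsk1 and Pcsk2, which cut proinsulin and proglucagon, were higher by 1.54 (SE 0.50) and 1.21 (SE 0.28). Dpp4, the protease that inactivates the incretins, was higher by 1.02 (SE 0.39), while its other probe gave 0.86 (SE 0.92) and did not pass. Gip, the ligand of the GIP receptor, differed by 0.56 (SE 0.23) with overlapping groups, and Slc5a7, a choline transporter, by 0.34 (SE 0.14). That Slc5a7 probe was well above background on 2 of 3 Wnt4low arrays. Another Slc5a7 probe, well above background on 0 of 6 arrays, read lower in Wnt4hi (-0.60, SE 0.27), which at background is no measured difference. These 7 genes beside Ghrl passed the unadjusted threshold in limma, with adjusted p between 0.0826 and 0.472.

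Sst, which encodes the ligand of the somatostatin receptors, was the 1 gene of the list that was lower in Wnt4hi. No gene of the list was lower without Wnt4hi replicate 2, Wnt4hi replicate 3 or Wnt4low replicate 1, and 2 were without Wnt4low replicate 3. It read 13.30, 13.61 and 13.79 in Wnt4hi against 14.35, 13.97 and 14.06 in Wnt4low, a difference of -0.56 (SE 0.19, adjusted p = 0.356 in limma, unadjusted p of 0.0238). The populations did not overlap, and the direction was opposite to the difference measured for Sstr3. Gcg, the source of glucagon and glucagon-like peptide 1, differed by 1.27 (SE 0.65) and Gal, which encodes galanin, by 0.27 (SE 0.20), and neither passed. They are named as ligands of the receptors and not for their values.

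Of 26 related receptors 1 was higher and 1 lower at the unadjusted threshold (median 0.09). Without Wnt4hi replicate 2 the higher count was 2, and without Wnt4low replicate 1 or 4 the lower count was 2. Ffar4, another receptor of long-chain fatty acids, read 9.58, 9.81 and 9.86 in Wnt4hi against 7.97, 8.90 and 8.27 in Wnt4low, a difference of 1.37 (SE 0.26, adjusted p = 0.113 in limma). Sctr, the secretin receptor, was lower (-0.92, SE 0.28). The other receptors of galanin and somatostatin, given here for their ligands, did not pass. Galr2 differed by 0.08 (SE 0.16) and Galr3 by 0.05 (SE 0.34), beside a lower bound of 1.71 for Galr1 by probe 2; Galr2 was well above background on 2 of 3 arrays of either population. Sstr1 differed by 0.37 (SE 0.40), Sstr4 by 0.15 (SE 0.19) and Sstr5 by 0.22 (SE 0.36). Adra2b and Adra2c, the other alpha2 receptors, differed by 0.08 (SE 0.22) and 0.21 (SE 0.13).

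Of 30 other receptors described in islets 4 were higher and 4 lower (median 0.13, or 0.17 without 5 genes whose shown probe was below background in both populations and with genes below it in 1 at their bound). Of those 5, Mtnr1a had another probe that was above background on 1 Wnt4hi array. Of the 4 lower genes 1, Htr1b, was among those 5 and so had no measured level. The higher count was 2 without Wnt4hi replicate 4, Wnt4low replicate 1 or Wnt4low replicate 3, and the lower count was 2 without Wnt4hi replicate 2, Wnt4hi replicate 4 or Wnt4low replicate 3. Adgrg1, an adhesion receptor, was higher by 1.03 (SE 0.16), Avpr1b, a vasopressin receptor, by 0.71 (SE 0.21), and Oxtr, the oxytocin receptor, by 0.57 (SE 0.23). Calcrl, the receptor of adrenomedullin and calcitonin gene-related peptide, known for its place in endothelium, was lower (-4.04, SE 0.36, adjusted p = 0.0269 in limma). It was well above background on 1 of 3 Wnt4hi arrays and 3 of 3 Wnt4low arrays, so the size rests on Wnt4hi values near the detection limit. Ptger3, a prostaglandin E2 receptor coupled to Gi, was lower (-2.30, SE 0.41), as was Gprc5b (-0.68, SE 0.26). The other probes of Ptger3 (-0.59, SE 0.29) and Gprc5b (-1.37, SE 0.74) did not pass.

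**Figure D5:**
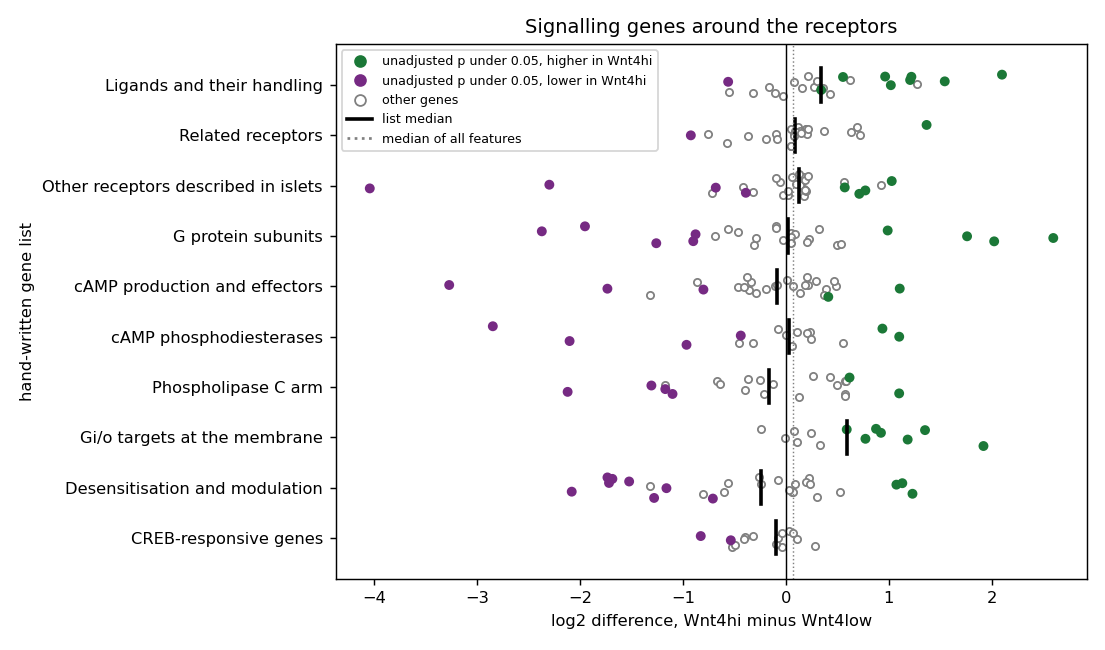
Log2 difference Wnt4hi minus Wnt4low (horizontal axis) of each gene of the 10 signalling lists; green and purple points passed the unadjusted 0.05 in limma, higher or lower in Wnt4hi, open points did not, black bars are list medians and the dotted line is the median of all features. The median of the Gi/o targets at the membrane is 0.59, or 0.33 with genes below background at their bound, that of the ligands is 0.34 or 0.36, and that of the desensitisation and modulation list is -0.24.

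Of 27 G protein subunits 4 were higher and 5 lower (median 0.02; 3 lower without Wnt4hi replicate 3). Gnao1, the alpha subunit of Go, read 11.10, 11.82 and 11.30 against 7.91, 10.33 and 9.89, a difference of 2.03 (SE 0.63), and its other probes gave 0.78 (SE 0.22) and 1.35 (SE 0.51). Gnai1, an alpha subunit of Gi, was higher by 0.99 (SE 0.24) and Gng4, a gamma subunit, by 2.60 (SE 0.76). Gng11, another gamma subunit, was lower (-1.95, SE 0.25, adjusted p = 0.0487 in limma), as were Gnb4 (-2.37, SE 0.36; well above background on 2 of 3 Wnt4hi arrays) and Gng2 (-1.26, SE 0.25). Another Gng4 probe, well above background on all 6 arrays, gave 0.15 (SE 0.29) and did not pass. Gnas, which encodes the Gs subunit used by the incretin receptors, differed by -0.09 (SE 0.15) and Gnaq by 0.22 (SE 0.22), named for their role.

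Of 13 membrane targets of Gi/o signalling 7 were higher and 0 lower (median 0.59, or 0.33 with genes below background at their bound). Cacna1a, the pore subunit of the P/Q-type calcium channel, was higher by 1.18 (SE 0.25), Kcnj11, the pore of the ATP-sensitive potassium channel, by 0.88 (SE 0.26), and Kcnk16, a two-pore potassium channel of islets, by 0.59 (SE 0.16). Each of the 3 passed the background call on every array, and their groups did not overlap. Other probes of Cacna1a (0.27, SE 0.22, and 0.79, SE 0.54) and Kcnj11 (0.19, SE 0.19), well above background on all arrays too, did not pass. The pan-endocrine list, with 11 of 12 genes higher at the same threshold, moved in the same direction, and its part was not tested.

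Of 27 genes of cAMP production and its effectors 2 were higher and 3 lower (median -0.09). The lower count was 8 without Wnt4hi replicate 4, and the higher count was 0 without Wnt4hi replicate 3 or Wnt4low replicate 1 and 1 without Wnt4hi replicate 2, Wnt4low replicate 3 or Wnt4low replicate 4. Adcy4, an adenylyl cyclase, was lower (-3.27, SE 0.48), as were Rapgef3, the cAMP sensor EPAC1 (-1.73, SE 0.44), and Akap7, an anchor of protein kinase A (-0.80, SE 0.21). Prkar1a, a regulatory subunit of protein kinase A, was higher by 0.41 (SE 0.17), and Akap5, another anchor, was at least 1.92-fold higher, being well above background on 0 Wnt4low arrays. Other probes of Akap7 (-0.01, SE 0.30, and 0.28, SE 0.61) and Prkar1a (0.20, SE 0.26) did not pass, and another Akap5 probe, well above background on 0 of 6 arrays, read lower in Wnt4hi (-0.61, SE 0.22), which at background is no measured difference. Of 16 cAMP phosphodiesterases, the enzymes that end the cAMP signal, 2 were higher and 4 lower (median 0.03), with 0 higher without any 1 of the Wnt4hi arrays and 1 higher without Wnt4low replicate 3. Pde3b was higher by 1.10 (SE 0.40) and Pde1c by 0.94 (SE 0.38), whereas Pde4b (-2.85, SE 0.51), Pde3a (-2.10, SE 0.51) and Pde2a (-0.97, SE 0.24) were lower. The Pde4b probe shown was well above background on 1 of 3 Wnt4hi arrays, and another Pde4b probe, above it on 2 of 3, gave -1.61 (SE 0.47). The other Pde3b probe gave 0.67 (SE 0.82) and did not pass.

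In the phospholipase C arm 2 of 22 genes were higher and 4 lower (median -0.17). The higher count was 4 without Wnt4low replicate 3 and 1 without Wnt4hi replicate 3, Wnt4hi replicate 4, Wnt4low replicate 1 or Wnt4low replicate 4. Protein kinase C beta (Prkcb) was higher by 1.10 (SE 0.29) and Prkca by 0.62 (SE 0.25), the latter with overlapping groups. The other Prkca probe, well above background on all arrays, gave 1.39 (SE 0.38) without overlap. The phospholipases Plcb1 (-2.12, SE 0.50), Plcb3 (-1.17, SE 0.29) and Plce1 (-1.10, SE 0.26) were lower. Another probe gave -0.57 (SE 0.52) for Plcb3 and -1.27 (SE 0.55) for Plce1, and neither passed. Of 15 genes that CREB is known to induce, 0 were higher and 2 were lower at the unadjusted threshold in limma (median -0.09), Nr4a1 (-0.83, SE 0.15) and Dusp1 (-0.53, SE 0.16). Without Wnt4low replicate 3 or 4 the lower count was 1.

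Of 27 genes of receptor desensitisation and modulation 3 were higher and 8 lower (median -0.24; 4 lower without Wnt4low replicate 4). Rgs17 (1.23, SE 0.28) and Rgs11 (1.08, SE 0.32), regulators that shorten Gi/o signals, and Grk3, a receptor kinase (1.13, SE 0.37), were higher. The other Rgs17 probes gave 0.53 (SE 0.27) and 0.32 (SE 0.16) and did not pass. Arrb1, encoding beta-arrestin 1, was lower (-1.73, SE 0.26), and so were the receptor partners Ramp2 (-2.08, SE 0.33) and Ramp3 (-1.69, SE 0.23). Ramp2 and Ramp3 pair with the product of Calcrl. These 3 genes, like Calcrl, Gng11 and Adcy4, were lower in Wnt4hi on the arrays where endothelial markers were lower (summed 6562 to 9389 against 43406 to 89184), and the part of those cells in them was not tested.

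The genes whose log2 values followed a receptor most closely over the 6 arrays were named by Pearson r among 16148 genes well above background on all arrays. This was done for the 7 receptor genes that were well above background on all 6 arrays, which leaves out Galr1, Ffar1 and Sstr2. These are descriptions over 6 points that share the same sort and normalisation, chosen as the highest of many. For Gipr they were Ins1, an insulin gene (r = 0.994), and Glrx5 (0.994), and for Glp1r Get4 (0.996) and Obox7 (0.994). For Gpr119 they were Tmem68 (0.998) and Gm5833 (0.992), for Adra2a Myo1d (0.992) and Gpn3 (0.991), and for Sstr3 Zswim7 (0.996) and Pmpcb (0.994). Gcgr was followed less closely, by Stau1 (0.975) and Utp14b (0.975), and Chrm3 by 1700095A13Rik (0.996) and Ppp3r1 (0.996).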

How the data were processed

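Per array, the authors deposited the intensity of every spot and of its local background (Cy5), not normalized, and a table of processed log2 values. RNA had been amplified from small inputs before labelling (Ovation PicoSL), which can widen the spread of dim genes. The software was Feature Extraction, version 9.1 in the submitters' notes and 12.0.1.1 in the file headers. Median intensities were background-corrected with normexp (offset 50), set to log2 and quantile-normalised as in the study's methods. Groups were compared with limma 3.58.1 (lmFit, eBayes; R 4.3.3) over 45616 features, tested on simulated data first, with Benjamini-Hochberg adjustment at 0.05. Control spots and spots marked as outliers (50 to 141 per array) were left out, and 0 were saturated. Names came from RefSeq (GRCm38.p6): 32994 of 35886 RefSeq-type probe names matched. A gene was shown by its probe with the highest mean. Of 352 list genes, 350 were measured. The receptor genes and all lists were chosen with earlier results of these data known. Named genes were all receptors, all ligand-list genes above background that passed the unadjusted 0.05, and of each other list those passing adjustment and up to 3 per direction with the lowest p. Arrays give no counts, so their number limits the precision.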

Additional observations from a re-analysis of the deposited data

How the results depend on the processing

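Galr1, Glp1r, Gipr, Gpr119, Adra2a and Sstr3 kept their direction in every setting run on them. The unadjusted receptor count of 3 became 5 with an offset of 16, the scanner's processed signal at its 75th percentile, dim features left out, a trended robust eBayes and the authors' processed values, and 3 to 6 when 1 array was left out, 6 without Wnt4low replicate 3. In those 5 settings, in that order, 2215, 2294, 1853, 2113 and 1961 of all features were higher at this threshold (2306 in the main fit). Those lower numbered 2578, 2614, 2243, 2510 and 2539 (2522 in the main fit). Leaving out dim features tested 31996 features and the authors' values 36689, against 45616. The adjusted receptor count of 0 became 1 (Galr1) with dim features left out (difference 2.29, adjusted p = 0.0319 in limma; Galr1 met that filter through Wnt4hi alone, so this is no support), the mean of all probes (2.73, 0.0469) and the authors' values (2.79, 0.0359), and stayed at 0 in limma without any 1 array. The cause was not tested, except that leaving out dim features adjusts over fewer of them.

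Ffar1 turned to 0.0079 without background subtraction, 0.011 with an offset of 16, 0.073 with the processed signal, 0.011 with median centring, 0.038 with the authors' values, 0.086 without Wnt4hi replicate 4 and 0.28 without Wnt4low replicate 3. Gcgr turned to -0.026 without Wnt4low replicate 1, and Chrm3 to -0.046 with the authors' values and -0.079 without Wnt4low replicate 4. Without 1 array Gcgr ranged from -0.026 to 0.73, Ffar1 from -0.17 to 0.28, Chrm3 from -0.079 to 0.38 and the dimmer Chrm3 probe from -0.19 to 0.27. The dimmer Chrm3 probe turned to -0.19 without Wnt4hi replicate 2 and -0.047 without Wnt4low replicate 3.

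Over all features the adjusted calls, 16 higher and 185 lower, became 27 higher with median centring, 79 and 429 with dim features left out, 58 and 348 with the authors' values, and 0 and 0 with Student's t-test (2202 and 1861 unadjusted). Without 1 array they were 0 to 0 higher and 0 to 9 lower in limma (1615 to 2413 and 2107 to 2612 unadjusted). The signalling genes higher at the unadjusted threshold numbered 17 with Student's t-test and 22 to 29 without 1 array, those lower 25 to 32.

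The labels do not say what a replicate number marks, and only numbers 3 and 4 occur in both populations. Deviations of same-numbered arrays correlated at -0.055 and 0.203, and those of Wnt4hi replicate 2 and Wnt4low replicate 1, numbered differently, at 0.201. With so few arrays these values cannot tell a pairing from none, so a pairing was neither shown nor excluded. The pup counts of same-numbered samples match (4 for number 3, 3 for number 4). With the number as a fixed block, 1 receptor gene passed the unadjusted threshold (Galr1), Glp1r was 0.49 with an unadjusted p of 0.115 and Gpr119 0.52 with 0.103, and 0 features were called higher and 0 lower after adjustment in limma (2082 and 2775 unadjusted). That fit takes each difference from replicates 3 and 4 alone. Wnt4hi replicate 2 and Wnt4low replicate 1 have no partner of the same number and do not enter it. As a random block (correlation 0.103) 27 features were called higher and 230 lower.

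In the authors' table the column of Wnt4hi replicate 2 followed its own array at r = 0.283 over features, against 0.878 to 0.902 for the other 5, so values from it carry that doubt. Signal over background limits Sstr2, Ffar1 and the Wnt4low level of Galr1.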
